A study of Mus musculus with 6 samples.

Results

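The genes described here build and run the primary cilium, and they were followed in primary mouse dermal fibroblasts with and without 5-aza-2'-deoxycytidine. The 36 genes were chosen by symbol and function, not by a threshold on their measured values, but with earlier results of these data known. Of these, 33 had a probe set that the platform annotation pairs with that gene alone, and Arl6, Arl13b and Rpgrip1l did not and are named only. The 33 genes had 51 probe sets, among 18193 genes and 45037 probe sets in all. In the text a gene is called when its adjusted p from limma lies under 0.05.

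The primary cilium is a single antenna on the cell surface, built from a microtubule core that grows out of the mother centriole. Cargo is carried along it by intraflagellar transport (IFT): the IFT-B complex moves outward with kinesin, the IFT-A complex moves back with a dedicated dynein, and the BBSome takes membrane proteins along. A transition zone at the base gates what enters. In dermal fibroblasts, as in most mesenchymal cells, the cilium is assembled mainly by cells that have left the cell cycle and serves Hedgehog and PDGF signalling.

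All 6 cultures were dermal fibroblasts of B6 pups of mixed sex aged 0 to 2 days, explanted separately for each biological replicate, grown in serum-containing medium and used at passage 4. The 3 treated cultures received 5 µM 5-aza-2'-deoxycytidine, a cytidine analogue that traps DNA methyltransferases, for 96 hours and then drug-free medium for 24 hours. The 3 control cultures were untreated. Each culture gave RNA for 1 Affymetrix array. Cilia were not counted or imaged in the data used here, and in RNA of a whole culture fewer ciliated cells and less RNA per cell cannot be told apart.

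Signals are given on the scale of the deposited MAS5 signal after each array was brought to a common trimmed mean of 193.2 signal units. Before scaling the trimmed means spanned 149.2 to 223.9, the lowest being that of treated culture 1. Log2 changes are treated minus control on the scale log2(signal + 9.66), which understates changes of dim probe sets. Of the 12 fibroblast markers checked, each was above the array median, and the sum of their signals was 64123 to 73512 in controls and 33748 to 40075 in treated cultures. The 3' to 5' ratio of the Actb control probe sets averaged 1.26 ± 0.010 over the controls and 1.16 ± 0.019 over the treated cultures (SD, n = 3 each; two-sided p = 0.1 by exact permutation, as small as 3 against 3 can give). That of Gapdh was 0.739 ± 0.016 and 0.764 ± 0.024 (SD, n = 3 each; two-sided p = 0.2 by exact permutation), a difference in the other direction. The part of these shifts in the changes of the cilium genes was not tested.

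The start regions of the cilium genes were looked at first, because the drug traps the enzymes that methylate CpG pairs. A further reason is that RFX factors bind a sequence called the X-box in front of many cilium genes. Methylation was not measured in the data used here. RefSeq promoter windows of 300 bases (250 before and 50 after the start, GRCm38.p6) matched 31 of the 36 genes in 32 windows, and Ift80, Ift81, Ift122, Dync2li1 and Tmem67 had no entry. Each of the 32 windows held at least 10 CpG pairs (median 22, range 11 to 35), against 75.9% of the windows of all tested genes (median 20). The X-box is a pair of half-sites in which some bases may vary; with the half-sites 0 to 3 bases apart and both strands searched, it was found in 3 of the 32 windows, those of Ift57, Tctn1 and Bbs1, against 1.58% of the windows of all tested genes. The half-site in its strict form, GTTGCC or its reverse complement GGCAAC, was searched separately and is called an arm here. It stood in 13 of the 32 windows, against 12.9% for all tested genes. These arms can lie inside an X-box and were counted there too.

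Shown next are the 250 bases before the start of 4 of these genes, with X-boxes and arms in capitals: Ift57 and Mks1, which fell, Bbs7, whose call was fragile, and Kif3a, which was not called. Each is written 5′ to 3′ on the strand of the gene. All 4 hold an arm, which only 13 of the 32 windows do, so they do not stand for the rest. The windows of Ift52, Ift74, Ift43, Ttc8 and Ofd1, also called lower, hold none. The windows are chr16:49699044-49699293, plus strand for Ift57, chr11:87852965-87853214, plus strand for Mks1, chr3:36613390-36613639, minus strand for Bbs7 and chr11:53567119-53567368, plus strand for Kif3a.
Ift57: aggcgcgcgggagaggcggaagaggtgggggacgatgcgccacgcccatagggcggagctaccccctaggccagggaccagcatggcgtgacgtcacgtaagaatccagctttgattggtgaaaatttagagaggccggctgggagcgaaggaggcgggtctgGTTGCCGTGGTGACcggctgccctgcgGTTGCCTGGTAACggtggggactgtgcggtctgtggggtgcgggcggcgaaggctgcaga
Mks1: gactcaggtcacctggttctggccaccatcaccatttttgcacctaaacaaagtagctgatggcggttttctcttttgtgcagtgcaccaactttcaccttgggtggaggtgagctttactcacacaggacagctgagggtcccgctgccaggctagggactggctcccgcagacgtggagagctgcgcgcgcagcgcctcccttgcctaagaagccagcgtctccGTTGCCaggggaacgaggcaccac
Bbs7: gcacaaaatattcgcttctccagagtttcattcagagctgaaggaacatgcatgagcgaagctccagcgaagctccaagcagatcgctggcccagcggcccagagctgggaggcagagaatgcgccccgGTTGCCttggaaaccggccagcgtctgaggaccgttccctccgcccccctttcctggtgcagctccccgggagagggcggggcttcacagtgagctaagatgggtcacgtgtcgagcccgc
Kif3a: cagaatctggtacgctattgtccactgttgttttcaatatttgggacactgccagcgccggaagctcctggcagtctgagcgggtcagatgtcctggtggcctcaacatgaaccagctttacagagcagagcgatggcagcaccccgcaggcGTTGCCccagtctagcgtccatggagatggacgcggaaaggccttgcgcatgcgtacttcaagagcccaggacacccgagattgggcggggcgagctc
Ift57 has an X-box beginning 87 bases and another beginning 60 bases before the start. The X-box of Tctn1, GTTGCCCGGGCAAC, begins at base 37 after the start, and that of Bbs1, GTTGCCAAGGCGAC, at base 2. Among the genes with a window, 5 of the 10 called lower and 6 of the 15 not called held an arm, and this difference was not tested. A match of letters does not show that a factor binds.

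Where cilium genes passed the test, they fell. Of the 33 genes on the array 29 were bright enough to be tested, and 13 of them were lower in treated cultures and 0 higher by limma, with 15 and 0 at an unadjusted p under 0.05. Over all 12194 genes tested 21.6% were called lower and 19.5% higher. The cilium genes had been chosen with earlier results of these data known, and their difference from these shares was not tested. The median log2 change of the 29 was -0.38, against -0.0032 over all genes tested. In 16 of the 29 all treated signals lay below all control signals, against 27.4% of all genes tested. Every one of the 29 lay above the array median in all 3 controls, so a gene could enter the test through its control arrays alone; among all genes bright in the 3 controls 24.5% were called lower. Mks1, Bbs9 and Bbs10 were the 3 that were not above it on all 6 arrays. Of the other 26, 12 were called lower and 0 higher, against 22.8% and 19.9% of the genes bright on all 6 arrays. With no filter on dim signals, 12 of 33 were lower and 0 higher, against 13.0% and 12.2% of 18193 genes. By probe set, 17 of 41 tested were lower and 0 higher, against 20.3% and 18.4% of all tested probe sets. A called log2 change of -1 or lower was found for 2 of the 29, Ift172 and Ift81, against 6.05% of all genes tested. Without scaling of the arrays 8 of the 29 were called lower and 0 higher, against 13.5% and 8.92% of all genes tested.

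**Figure D1:**
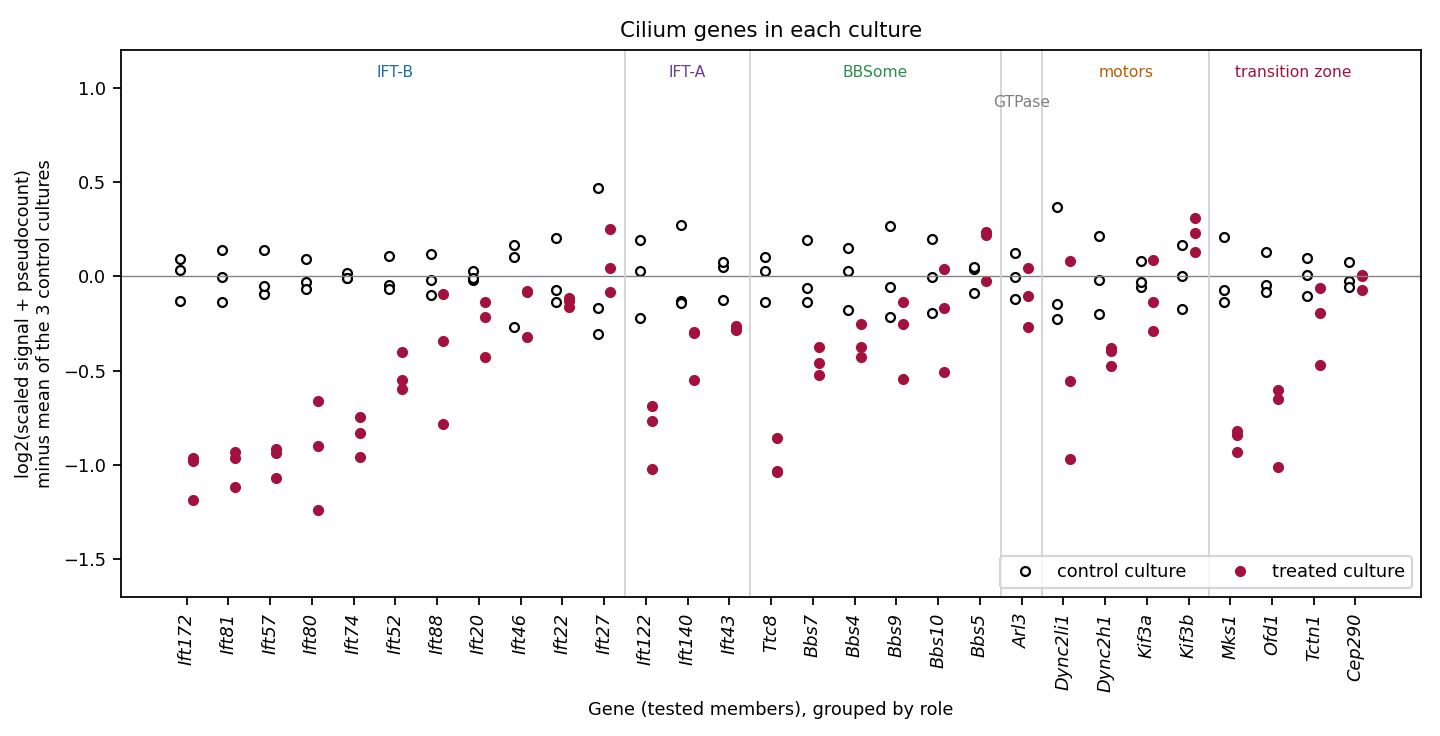
Signals of the 29 tested cilium genes in each culture, as log2(scaled signal + 9.66) minus the mean of the 3 control cultures of that gene (vertical axis), with genes grouped by role along the horizontal axis. Open points are control cultures and filled points treated cultures, and treated points of Ift172, Ift81, Ift57, Ift80, Ift74, Ift122, Ttc8, Mks1 and Ofd1 lie well below their controls.

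The IFT-B complex, the outward train, held the lowest values among the tested genes. Of its 11 genes 6 were lower and 0 higher, with a median of -0.51. The share lower was 54.5%, against 21.6% over all genes tested. Ift172, a peripheral subunit at the train's outer side, gave signals of 166, 159 and 141 in control cultures 1 to 3 and 62.8, 75.0 and 74.0 in treated cultures 1 to 3. All treated cultures were below the lowest control, and the mean moved from 156 ± 12.8 to 70.6 ± 6.77 (SD, n = 3). The log2 change was -1.04 ± 0.16 (SE; adjusted p = 0.000711). Ift81 and Ift74 bind each other and together carry tubulin. Ift81 gave 406, 448 and 494 in control cultures 1 to 3 and 201, 225 and 230.4 in treated cultures 1 to 3 at its brightest probe set. The ranges were well apart, and the log2 change was -1.003 ± 0.11 (SE; adjusted p = 0.000109). That probe set has a name ending in _s_at, which marks probes shared between transcripts, and another one of Ift81 without this mark changed by -1.02 ± 0.13 (SE; adjusted p = 0.000228). Its partner Ift74 gave 626, 615 and 614 in control cultures 1 to 3 and 365, 314 and 344 in treated cultures 1 to 3. The controls were close together, the treated cultures lay far below them, and the log2 change was -0.84 ± 0.09 (SE; adjusted p = 9.50e-05).

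Ift57, a coiled-coil subunit that contacts the kinesin, gave 366, 310.3 and 320.1 in control cultures 1 to 3 and 169, 153 and 171 in treated cultures 1 to 3. Treated signals were 49.5% of control on average, a log2 change of -0.97 ± 0.12 (SE; adjusted p = 0.000163). Ift80, mutated in a human skeletal ciliopathy, gave 230.3, 224 and 251 in control cultures 1 to 3 and 145, 93.9 and 121 in treated cultures 1 to 3. Treated culture 2 was the lowest, all treated cultures were below all controls, and the log2 change was -0.93 ± 0.16 (SE; adjusted p = 0.00158). The other probe set of Ift80 changed by -0.74 ± 0.14 (SE; adjusted p = 0.00244). Ift52, which anchors other core subunits, gave 412, 459.8 and 406 in control cultures 1 to 3 and 319.6, 278 and 288 in treated cultures 1 to 3. Its groups did not overlap, and its log2 change of -0.51 ± 0.10 (SE; adjusted p = 0.00351) was smaller in size than those of the 5 genes above.

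The other 5 IFT-B genes were not called. Ift88, a core subunit whose loss stops cilium assembly, gave 206, 176 and 187 in control cultures 1 to 3 and 177, 106 and 147 in treated cultures 1 to 3. Treated culture 1 lay within the control range and the other two below it, and the change was -0.41 (95% interval -0.81 to 0.00119; adjusted p = 0.108). Without treated culture 1 it passed, at -0.56 (adjusted p = 0.0414). With any other single array left out Ift88 was not called, and its change was as small as -0.22. Ift20, which also works at the Golgi, had a log2 difference of -0.26 (95% interval -0.52 to -0.00170; adjusted p = 0.105), with all treated signals below all controls. Ift46, a carrier of outer arm proteins in motile cilia, had a log2 difference of -0.16 (95% interval -0.45 to 0.13; adjusted p = 0.372), and Ift22, a GTPase-like subunit, of -0.14 (95% interval -0.39 to 0.12; adjusted p = 0.388). These intervals do not reach a fall of the size of Ift74.

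Ift27, a GTPase of the train that lets the BBSome leave the cilium, read differently by probe set. Its brightest probe set gave 267, 295 and 462 in control cultures 1 to 3 and 343, 313 and 397 in treated cultures 1 to 3, with control culture 3 far above the other controls, and had a log2 difference of 0.07 (95% interval -0.35 to 0.50; adjusted p = 0.800). That one carries the mark _x_at, for probes that can bind unrelated transcripts, and so does another, which had a log2 difference of -0.28 (95% interval -0.55 to -0.00457; adjusted p = 0.102). The probe set without such a mark gave 319, 271 and 276 in control cultures 1 to 3 and 181, 208 and 220.0 in treated cultures 1 to 3. There all treated signals were below all controls, and the log2 change was -0.49 ± 0.12 (SE; adjusted p = 0.0114).

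In the IFT-A complex, which brings the train back and admits membrane receptors, 2 of 3 genes were lower and 0 higher. Over all genes tested 21.6% were lower, and a share of 3 genes is coarse. Ift122, a core subunit, gave 241, 179 and 215 in control cultures 1 to 3 and 127, 98.5 and 119.6 in treated cultures 1 to 3. The treated cultures lay wholly below the controls, and the log2 change was -0.82 ± 0.16 (SE; adjusted p = 0.00262). That probe set carries the mark _s_at. The other one of Ift122, without this mark, changed by -0.60 ± 0.18 (SE; adjusted p = 0.0257) and lost its call with no filter (adjusted p = 0.0546). Ift43, a small peripheral subunit, gave 843, 746 and 859.9 in control cultures 1 to 3 and 677, 667 and 671 in treated cultures 1 to 3. The treated cultures were close together and below all controls, and the small log2 change of -0.28 ± 0.09 (SE; adjusted p = 0.0304) lost its call when any array other than control culture 2 was left out, with adjusted p-values up to 0.0904. Ift140, another core subunit, gave 165, 164 and 221 in control cultures 1 to 3 and 146, 146 and 121 in treated cultures 1 to 3. The groups did not overlap, but the change of -0.38 (95% interval -0.74 to -0.025; adjusted p = 0.0864) was not called.

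**Figure D2:**
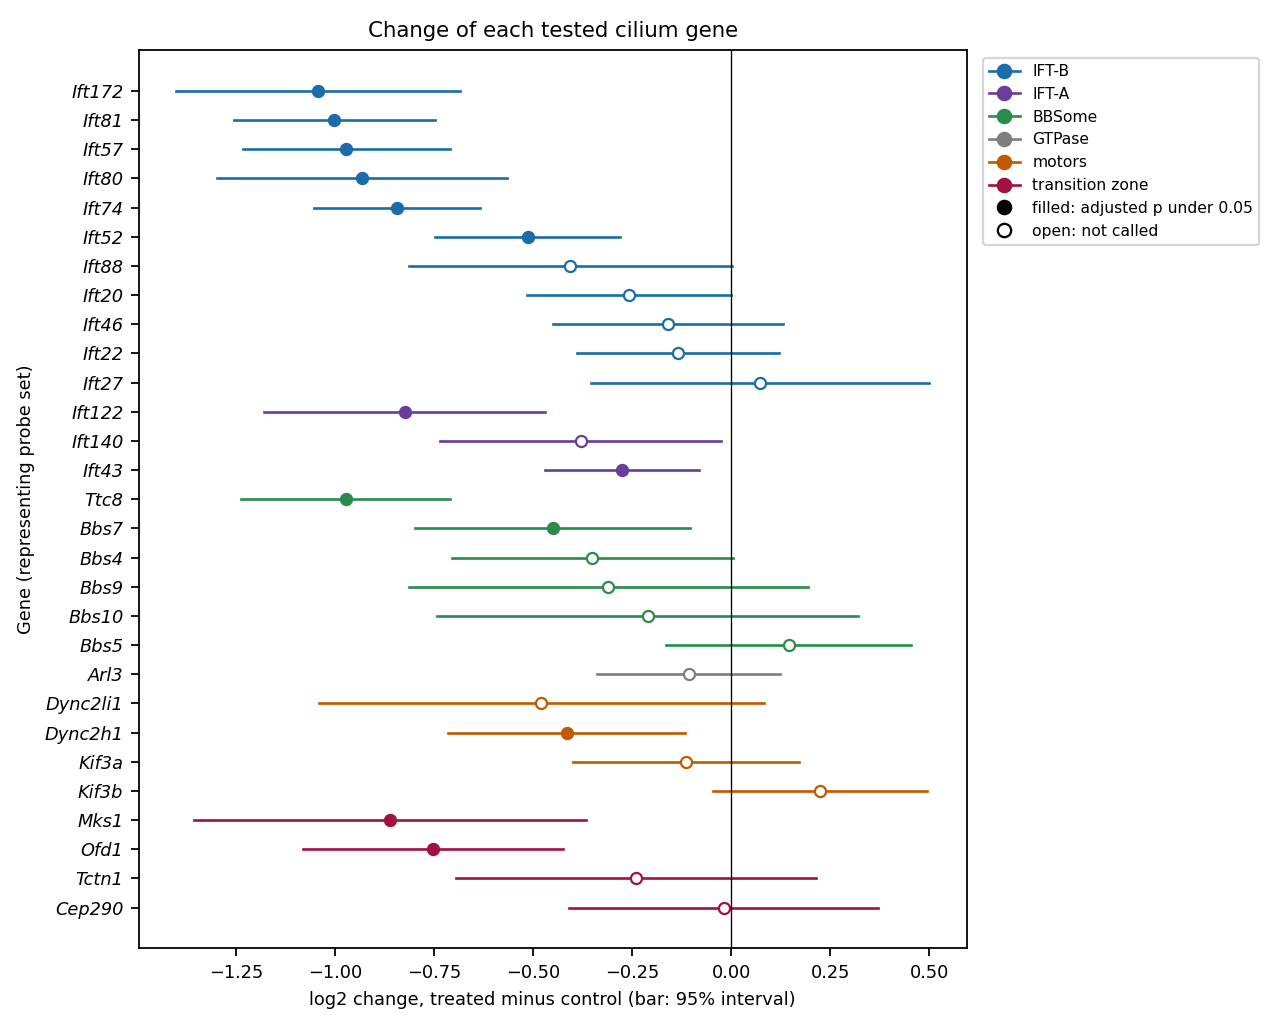
Log2 change of each tested cilium gene, treated minus control (horizontal axis), at its representing probe set, with the 95% interval from limma as a bar and colours for roles. Filled points passed an adjusted p of 0.05; Ift172 at -1.04 is lowest, and none of the filled points lies right of 0.

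Of the BBSome and its partners, 9 of 10 genes were on the array, 6 were tested, and 2 were lower and 0 higher. The share lower was 33.3%, against 21.6% over all genes tested, and with 6 genes a single call moves it far. Ttc8, a BBSome subunit also known as Bbs8, gave 343, 306 and 362 in control cultures 1 to 3 and 159.5, 181 and 159 in treated cultures 1 to 3. The treated cultures were near 49.4% of control, a log2 change of -0.97 ± 0.12 (SE; adjusted p = 0.000172). Bbs7, which forms the core of the complex with Bbs2 and Bbs9, gave 162, 134 and 127 in control cultures 1 to 3 and 99.3, 106 and 94.4 in treated cultures 1 to 3. The groups were apart, but its change of -0.45 ± 0.15 (SE; adjusted p = 0.0436) was lost when any 1 array was left out (adjusted p = 0.0508 to 0.155) and with no filter (adjusted p = 0.0818). A second probe set of Bbs7 had signals under 10 on every array and was not tested.

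Bbs4, a peripheral BBSome subunit that binds centriolar satellites, gave 112, 143 and 130.5 in control cultures 1 to 3 and 92.7, 96.3 and 106 in treated cultures 1 to 3 at its brightest probe set. Treated signals were all lower, but the change of -0.35 (95% interval -0.71 to 0.00391; adjusted p = 0.111) was not called, and neither was that of the other tested probe set (-0.13; adjusted p = 0.646). Bbs9 had a log2 difference of -0.31 (95% interval -0.81 to 0.19; adjusted p = 0.313) and Bbs10, a chaperonin-like protein that helps assemble the BBSome, of -0.21 (95% interval -0.74 to 0.32; adjusted p = 0.527). Bbs5, a subunit that binds membrane lipids, went the other way without being called, at 0.14 (95% interval -0.17 to 0.45; adjusted p = 0.453). The intervals of Bbs9 and Bbs10 still reach falls of the size seen in Bbs7.

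Bbs1, Bbs2 and Bbs12 were too dim to enter the test. Bbs1, the subunit that recruits the BBSome to the membrane with Arl6, gave 39.5, 39.3 and 59.7 in control cultures 1 to 3 and 5.18, 4.37 and 6.27 in treated cultures 1 to 3. Its treated signals were all below the pseudocount and far below the controls, and with no filter the log2 change was -1.88 ± 0.28 (SE; adjusted p = 0.00172). Bbs2 gave 56.7, 35.6 and 44.3 in control cultures 1 to 3 and 7.90, 38.6 and 9.04 in treated cultures 1 to 3. Treated cultures 1 and 3 were low and treated culture 2 lay within the control range, and with no filter the change was -1.12 ± 0.43 (SE; adjusted p = 0.119). Bbs12, another chaperonin-like assembly factor, overlapped between groups at 0.03 ± 0.33 (SE; adjusted p = 0.968) with no filter. Without detection calls, a signal of this size was not separated from background.

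Of the 4 motor genes, 1 was lower and 0 higher. The share lower, 25%, is near the 21.6% over all genes tested. Dync2h1, the heavy chain of the dynein that powers the return, gave 209, 282 and 238 in control cultures 1 to 3 and 171, 184 and 181 in treated cultures 1 to 3. The treated cultures were close together and below all controls, and its log2 change of -0.42 ± 0.13 (SE; adjusted p = 0.0336) lost its call with no filter (adjusted p = 0.0566), after quantile normalization (adjusted p = 0.0617), and without control culture 2 or 3 or any single treated culture (adjusted p up to 0.113). Dync2li1, the light intermediate chain of the same motor, gave 329.7, 349.7 and 504 in control cultures 1 to 3 and 261, 194 and 410.4 in treated cultures 1 to 3. Culture 3 was the highest of each group, the groups overlapped, and the change was -0.48 (95% interval -1.04 to 0.083; adjusted p = 0.165). Without treated culture 3 it was -0.76 (adjusted p = 0.0195). With any other single array left out Dync2li1 was not called, and its change was as small as -0.24.

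Kif3a and Kif3b are the motor subunits of the kinesin that drives the outward train, and none of their 8 probe sets was called. Kif3a gave 264, 239.6 and 244 in control cultures 1 to 3 and 226, 265 and 202 in treated cultures 1 to 3 at its brightest probe set. The groups overlapped, with a change of -0.11 (95% interval -0.40 to 0.17; adjusted p = 0.522), and its other probe sets differed by -0.40, 0.07 and 0.27. Kif3b gave 231, 295 and 262 in control cultures 1 to 3 and 287, 308 and 326 in treated cultures 1 to 3. Its interval leaned upward, at 0.22 (95% interval -0.046 to 0.49; adjusted p = 0.177). A fall as large as those of Ift172 or Ttc8 lies outside the intervals of the brightest probe sets of both genes.

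**Figure D3:**
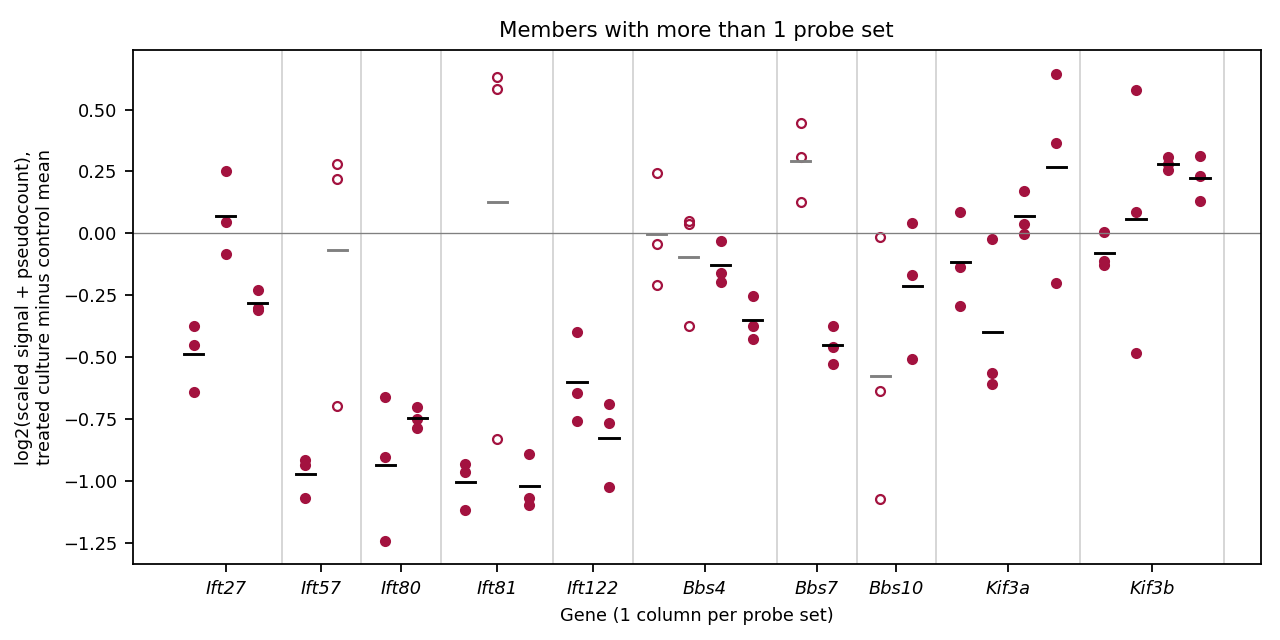
Members with more than 1 probe set, 1 column per probe set: each point is a treated culture as log2(scaled signal + 9.66) minus the mean of the 3 control cultures (vertical axis), and short lines are means. Open points mark probe sets that were too dim to be tested; the tested probe sets of Ift80, Ift81 and Ift122 lie below 0 together, those of Kif3a and Kif3b on both sides of it.

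At the transition zone and basal body, 2 of the 4 tested genes were lower and 0 higher. Over all genes tested 21.6% were lower, and a share of 4 genes is coarse. Mks1, a subunit of the gate that is mutated in Meckel syndrome, gave 78.6, 97.5 and 75.0 in control cultures 1 to 3 and 43.0, 42.3 and 39.1 in treated cultures 1 to 3. The treated signals were near 49.5% of control and below the array median, and the log2 change was -0.86 ± 0.22 (SE; adjusted p = 0.0120). Ofd1, a protein of the centriole end and its satellites that is encoded on the X chromosome, gave 263, 232 and 226 in control cultures 1 to 3 and 149, 114 and 154 in treated cultures 1 to 3. The groups were well apart, and the log2 change was -0.75 ± 0.15 (SE; adjusted p = 0.00286).

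Cep290, which tethers the membrane to the microtubules in the gate, gave 80.1, 78.0 and 86.4 in control cultures 1 to 3 and 81.7, 77.2 and 81.8 in treated cultures 1 to 3. The groups overlapped throughout, and the change was -0.02 (95% interval -0.41 to 0.37; adjusted p = 0.943). Tctn1, a gate protein that carries the X-box noted above, gave 80.2, 73.4 and 85.8 in control cultures 1 to 3 and 54.9, 76.0 and 68.4 in treated cultures 1 to 3 and had a log2 difference of -0.24 (95% interval -0.69 to 0.21; adjusted p = 0.390). Tmem67, a receptor-like gate protein, was too dim to be tested, at -0.50 ± 0.32 (SE; adjusted p = 0.368) with no filter and with overlapping groups. Arl3, the GTPase that releases lipid-modified cargo inside the cilium, gave 1228, 1038 and 1123 in control cultures 1 to 3 and 1163, 1050 and 935 in treated cultures 1 to 3. Its groups overlapped, with a change of -0.11 (95% interval -0.34 to 0.12; adjusted p = 0.451).

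The 93 further cilium genes, listed by role, were read in the same fit. On the array were 87, and of the 81 tested 28 were lower and 5 higher, with a median of -0.30. These are 34.6% and 6.17% of the list, against 21.6% and 19.5% of all genes tested. Without scaling, 17 were lower and 2 higher, and the shares over all genes tested were those given above for that setting. Wdr34, Nek2 and Cep164, named below, lost their calls with no filter (adjusted p = 0.0927, 0.0522 and 0.0743). Among further IFT subunits and adaptors, 4 of 10 were lower and 0 higher. Ttc30b, an IFT-B subunit (IFT70), moved from 316 ± 14.2 to 91.8 ± 9.50 (SD, n = 3), which is -1.69 ± 0.13 (SE) on the log2 scale. Wdr19, the IFT-A subunit also known as IFT144, changed by -0.79 ± 0.18, Cluap1 (IFT38) by -0.57 ± 0.15 and Hspb11 (IFT25) by -0.39 ± 0.09. Among further motor subunits 2 of 7 were lower and 0 higher, and the share lower, 28.6%, is near the 21.6% over all genes tested. The 2 were Kifap3, the partner that links Kif3a and Kif3b to cargo, at -0.60 ± 0.09, and Wdr34, an intermediate chain of the return dynein, at -0.52 ± 0.18.

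Among further transition zone and inversin genes, 6 of 14 were lower and 0 higher. The share lower was 42.9%, against 21.6% over all genes tested. The gate protein Tmem107 moved from 467 ± 35.4 to 193 ± 20.8 (SD, n = 3), which is -1.24 ± 0.12 (SE) on the log2 scale. B9d1, a direct partner of Mks1, changed by -0.99 ± 0.15, Invs, which names the inversin compartment, by -0.89 ± 0.15 and Tmem237 by -0.55 ± 0.10. Among centriolar appendage, satellite and cap genes, 5 of 14 were lower and 1 higher. These are 35.7% and 7.14%, against 21.6% and 19.5% over all genes tested. Cep41, needed for tubulin glutamylation in the cilium, changed by -1.44 ± 0.17 with 2 of its 3 treated signals above the array median, the satellite scaffold Pcm1 by -0.94 ± 0.15, the satellite-bound ligase Mib1 by -0.73 ± 0.10 and Ttbk2, the kinase that starts cilium growth, by -0.81 ± 0.17. The distal appendage gene Cep164, chosen after its values were seen, was the 1 that rose (0.34 ± 0.12; adjusted p = 0.0483 by limma).

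The membrane list had 3 of 6 lower and 0 higher, a share of 50% lower against 21.6% over all genes tested. Evc, a Hedgehog signalling protein at the cilium base, went from 123 ± 14.0 to 37.7 ± 12.7, a log2 change of -1.51 ± 0.25. It entered the test through its controls alone, with 0 of 3 treated signals above the array median. Pkd1, the polycystin receptor, changed by -1.06 ± 0.17 and the adenylyl cyclase Adcy6 by -0.84 ± 0.15. Genes of ciliary entry and cargo carriage had 3 of 11 lower and 2 higher, shares near those over all genes tested (21.6% and 19.5%). Rab3ip, the exchange factor (Rabin8) that activates Rab8 at the cilium base, rose from 150.0 ± 21.1 to 464 ± 45.1, a log2 change of 1.57 ± 0.13, and Rab11a, which delivers it, rose by 0.38 ± 0.08. Lztfl1, which holds the BBSome back from the cilium, changed by -0.50 ± 0.09, and Pde6d, a carrier of prenylated cargo, by -0.58 ± 0.12.

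Tubulin-modifying enzymes had 0 of 7 lower by limma (also 0 at an unadjusted p under 0.05) and 2 higher, Ttll5 (1.11 ± 0.31, with overlapping groups) and Ttll1 (0.50 ± 0.10). Both probe sets carry a mark for shared probes. Over all genes tested 21.6% were called lower and 19.5% higher, and each list in this paragraph is short. Of 6 disassembly genes 3 were lower and 0 higher, a share of 50% lower. These are the mitotic kinases Plk1 (-0.70 ± 0.19), Nek2 (-0.68 ± 0.20) and Aurka (-0.55 ± 0.12). Kif2a of the same list went the other way without being called (0.22 ± 0.09, adjusted p = 0.0741 by limma), with all treated signals above all controls. Of 6 tested transcription factors of the RFX and ciliogenesis list 2 were lower and 0 higher, a share of 33.3% lower. The 2 were Glis2 (-0.79 ± 0.10) and Rfx5 (-0.54 ± 0.12). Rfx7 (-0.27 ± 0.13) and Rfx3 (0.14 ± 0.26), a main activator of cilium genes, were not called.

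**Figure D4:**
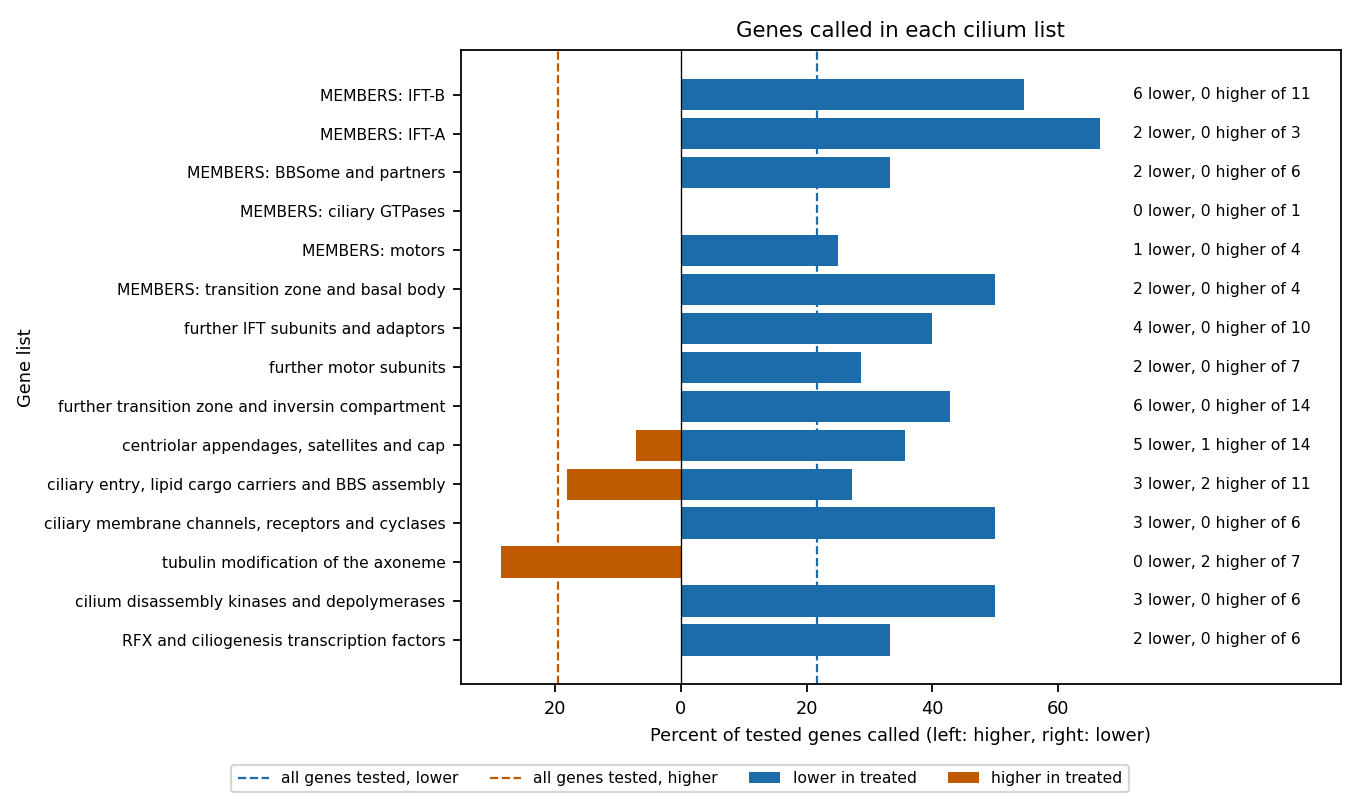
Percent of tested genes called in each list of cilium genes (horizontal axis: lower to the right, higher to the left), with the counts written at the right. Dashed lines give the 21.6% called lower and 19.5% called higher among all genes tested; lists of few genes move in large steps.

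Other measures moved with the cilium genes between the groups. Of 11 dividing-cell markers 8 were lower and 1 higher, against 21.6% and 19.5% of all genes tested. Mki67 changed by -1.66 ± 0.19 (SE), while Pcna (0.02 ± 0.10) and Mcm2 (0.21 ± 0.12) were not called. The summed signal of the list was 5324 to 7391 in controls and 5538 to 6168 in treated cultures. The 1 higher gene was Rrm2, which moved from 957 ± 171 to 2086 ± 276 (SD, n = 3). Without Rrm2, left out after its values were seen, the sum was 4525 to 6253 in controls and 3765 to 3926 in treated cultures. That gap rests on leaving out the 1 gene that rose, and the sums of the whole list overlapped. Of the 12 fibroblast markers 9 were lower and 1 higher, against 21.6% and 19.5% of all genes tested. Pdgfra, a receptor that signals from the cilium, changed by -3.21 ± 0.18. The 1 higher was Fn1 (0.26 ± 0.08, limma adjusted p = 0.0254), which lost its call with no filter (limma adjusted p = 0.0837). Vim (0.13 ± 0.08) and Twist2 (0.22 ± 0.16) leaned upward and were not called. Of the multiciliated-cell list 19 of 20 genes were on the array and 3 were bright enough to be tested, of which 0 were lower and 1 higher. The higher one was Hydin, whose mean signals were 42.0 ± 15.8 in controls and 104.9 ± 12.2 in treated cultures (SD, n = 3). It rose by 1.19 ± 0.26 on the log2 scale (limma, adjusted p = 0.00587), with 1 of 3 control signals above the array median. Rsph9 and Dnah9 were tested and not called. The sum of the list was 534.9 to 612.2 in controls and 505.2 to 648 in treated cultures. Its members Tekt2, Spag6, Ccdc113, Zmynd10 and Lrrc6 had means under 9.66 in both groups. The part of cell division and of the fibroblast programme in the changes of the cilium genes was not tested.

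Sums of other cell type markers were also compared. Keratinocyte markers summed to 366.7 to 430.6 in controls and 704.5 to 1063 in treated cultures, with Krt1 and Krt15 under 9.66 in both groups while Ivl went from 3.90 ± 0.839 to 179 ± 24.8 and Dsp from 25.9 ± 10.6 to 277 ± 136 (SD, n = 3). Both entered the test through the treated arrays alone, and the control signals of Ivl lay under the pseudocount, so no fold is given. Skeletal muscle markers summed to 787.8 to 950.2 and 4692 to 5434, mostly Acta1 (3.05 ± 0.12), with Myf5 under 9.66 in both groups. Leukocyte markers summed to 510.8 to 562.9 and 638.2 to 784.9, endothelial markers to 298.7 to 346.9 and 278 to 380.4, and melanocyte and neural markers to 690.5 to 775.3 and 746.8 to 874.9. Their part in the changes of the cilium genes was not tested.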

How the data were processed

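The data were 1 Affymetrix array for each of 3 treated and 3 control cultures. The deposited values are signal intensities on a linear scale, made with MAS5 per the submitters' processing notes; version, target intensity and detection calls: not given in the sources used here. Groups came from the sample titles. Each array was scaled to a common 2% trimmed mean (193.2), and log2(signal + 9.66) was used, the pseudocount being 0.05 of that mean. The 64 control probe sets were left out. A probe set was tested if it exceeded its array's median on at least 3 of 6 arrays, which left 23388 of 45037 probe sets. The group was the sole term of a limma fit (lmFit, then eBayes with trend; limma 3.58.1, R 4.3.3), two-sided, adjusted by Benjamini-Hochberg over all tested probe sets. Each gene is read from whichever tested probe set was brightest by mean log2 signal. The number of arrays limits the precision.

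The platform annotation named 1 gene for 34945 probe sets, several for 932 and none for 9160; no gene was named from several. All 36 genes were named whatever their values. Of each further list up to 4 genes with the smallest p were named, though not each uncalled one, and any called gene changed at least 2-fold. Cep164 and the genes of the cell type lists were named after their values were seen. Members and lists were chosen with earlier results of these data known. The procedure was tested on simulated data with independent noise and far fewer changed probe sets than were called here. That run therefore does not measure the error rate of these calls. Alternatives were the scaling, the pseudocount, the filter, the trend, the replicate number as a block, leaving out each array, and averaging the probe sets of a gene. Deviations of same-numbered control and treated cultures from their group means correlated by 0.186, 0.172 and 0.0720. Those of differently numbered cultures correlated by -0.149 to -0.0218. Because deviations within a group cancel, a positive correlation with 1 culture forces a negative one with another, so this contrast is partly arithmetic. The sample titles do not say whether a number pairs the cultures, so the block was used as an alternative only.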

Additional observations from a re-analysis of the deposited data

How the results depend on the processing

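Of the 13 cilium genes called lower, 8 (Ift57, Ift74, Ift80, Ift81, Ift172, Ift122, Ttc8 and Ofd1) kept direction and call in all 15 alternatives, and none of the 13 changed sign. Leaving the signals unscaled gave 5019 called probe sets in place of 9040, 8 lower cilium genes in place of 13, and 17 lower and 2 higher further cilium genes in place of 28 and 5; unscaled array levels add to the spread, and Ift52 (adjusted p = 0.0899) and Mks1 (0.0556) lost their calls there alone. Leaving out 1 array gave 10 to 11 lower cilium genes, 26 to 28 lower and 3 to 4 higher further genes; the 3 came without control culture 3 or treated culture 3, and the cause was not tested. Other settings gave 11 to 13. Among the genes not called, Ift27 went from 0.072 to -0.0015 without scaling, lay between -0.079 and 0.31 when 1 array was left out, and was -0.23 as the mean of its probe sets, and Cep290 lay between -0.047 and 0.019 when 1 array was left out. With the replicate number as a block, 13 cilium genes were lower by limma, Bbs7 lost its call (adjusted p = 0.0507) and Dync2li1 gained one (-0.48, adjusted p = 0.0187). Each culture correlated best with its own number, a weak hint from the data that is partly arithmetic and not from the design. Dim signals limit what can be said of Bbs1, Bbs2, Bbs12 and Tmem67.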
